A study of Mus musculus with 35 samples.

Results

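The 10 genes described here license and prime DNA for replication. They are Mcm2, Mcm3, Mcm4, Mcm5, Mcm6, Mcm7, Mcm10, Cdc6, Cdt1 and Pcna, listed by name with no threshold on their values. Every array probe set annotated with exactly that 1 symbol was taken, which gave 18 probe sets for the 10 genes among 45037 probe sets on the array. The brightest probe set over the 35 arrays stood for each gene, and the same rule gave 17097 genes in all. Lungs were taken whole from adult males of CD-1, an outbred strain, after the mice breathed clean air (0 ppm) or air with styrene at 1, 5, 10, 20, 40 or 120 ppm, with 5 mice and 5 arrays in each group. No allele or second agent distinguished the groups. The labels disagree on the length of exposure: the treatment protocol and the design give a single exposure of 6 hours and the sample titles 1 day, whereas another field gives 5 days. Lungs were collected on the morning after the last exposure, per the labels, so the values are those of a single time point. The defining lung markers were among the brightest probe sets: Sftpc of alveolar type II cells averaged 13.77, Ager of type I cells 13.50 and Scgb1a1 of club cells 13.81 on the deposited log2 scale.

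Before a cell enters S phase, the origin recognition complex, Cdc6 and Cdt1 load a ring of the MCM proteins (MCM2 to MCM7, a single copy of each) onto DNA as an inactive double ring. Cdc45 and the GINS complex later turn it into the moving helicase, with MCM10 helping the step, while geminin (Gmnn) blocks Cdt1 so that an origin is licensed once per cycle. PCNA is the sliding clamp that holds the replicative polymerases on DNA. The genes of the ring are widely known to be transcribed together under E2F factors as cells leave quiescence, and most cells of the adult lung are quiescent.

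In lungs from 5 ppm up the ring subunits moved in opposite directions. At 120 ppm Mcm4 was 5.31-fold higher than in air (log2 change 2.41 ± 0.16, SE) and Mcm6 was 2.03-fold higher (1.02 ± 0.15), whereas Mcm2 was 2.91-fold lower (-1.54 ± 0.16) and Mcm5 was 2.18-fold lower (-1.12 ± 0.15), each with n = 5 mice in each group. Mcm7 (-0.42 ± 0.13) and Mcm3 (-0.39 ± 0.15) fell less. Of the loading factors, Cdt1 was 3.00-fold lower (-1.58 ± 0.19) and Cdc6 was 1.48-fold higher (0.56 ± 0.15). The clamp Pcna was 1.81-fold higher (0.86 ± 0.08), and Mcm10 gave -0.25 ± 0.18 with no call. Adjusted p-values for these changes were 5.29e-14 for Mcm4, 2.57e-07 for Mcm6, 4.77e-10 for Mcm2, 1.08e-07 for Mcm5, 0.00635 for Mcm7, 0.0224 for Mcm3, 6.66e-09 for Cdt1, 0.00104 for Cdc6, 4.57e-11 for Pcna and 0.224 for Mcm10 (limma, Benjamini-Hochberg over the 17097 genes). A gene was called where this adjusted p was under 0.05.

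The test thus called 9 of the 10 genes at 120 ppm: 4 rose and 5 fell, where 68.9% of all genes were called (29.8% higher and 39.1% lower), so the number called is not particular to these genes. Their median log2 change was -0.32, against -0.15 over all genes. A called change of at least 2-fold was seen in 5 of the 10, against 28.1% of all genes. The interquartile range of the log2 values on an array was 3.28 to 3.54 on the 25 arrays from 5 to 120 ppm and 2.66 to 3.16 on the 10 arrays of air and 1 ppm, so these sets did not overlap. Within groups this quartile range correlated with Mcm4 (r = 0.70 over 35 arrays) and with Mcm6 (r = 0.44). With Mcm2 it gave 0.09, with Mcm5 0.07 and with Cdt1 0.20. The array axis, the main direction of spread between mice of the same group, gave -0.61 for Mcm4 and -0.39 for Mcm6. It gave 0.48 for Mcm2, 0.49 for Mcm5, 0.21 for Cdt1 and -0.11 to 0.21 for the other members. Its group mean was 1.33 in air and -1.28 to -0.15 from 5 ppm up. A lower axis value thus went with higher Mcm4 and Mcm6 and lower Mcm2 and Mcm5, as exposure did. Cdc6 (0.08) went against its rise at 120 ppm. A shift across the whole array and an effect of exposure cannot be told apart for the step between these sets of arrays. No called change of a member from 5 ppm up turned sign against air under quantile normalization or centring on array medians. The change of Cdc6 at 5 ppm, which was not called, turned sign after centring. The median change of all genes at 5 ppm was -0.33 after centring and -0.14 after quantile normalization, against -0.23 as deposited.

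With the quartile range of each array as a covariate, Mcm4, Pcna, Mcm2, Mcm5 and Cdt1 were still called in the same direction at each concentration from 5 ppm up. Mcm6 lost its call at each of them (0.46 and adjusted p = 0.181 at 120 ppm in limma), as did Cdc6 at 120 ppm (0.48, 0.208) and Mcm3 at 10 and 40 ppm, and Mcm7 at 10, 20, 40 and 120 ppm (-0.40, 0.251 at 120 ppm). Mcm4 shrank to 1.42 at 120 ppm (2.01e-05). With the array axis, the main direction of spread between mice of the same group, as a covariate, Mcm4 (1.54, 3.79e-05 at 120 ppm), Pcna (0.79, 0.00023) and Cdt1 (-1.24, 0.00928) were called at each concentration from 5 ppm up and Mcm2 at each but 20 ppm (-0.87, 0.0188 at 120 ppm). Mcm3, Mcm5 (-0.47, 0.203 at 120 ppm) and Mcm7 were called at none, Mcm6 at 20 ppm alone and Cdc6 at 120 ppm no longer (0.66, 0.0819). The changes whose calls were lost under the quartile range were larger for Mcm3 and nearly as large for Mcm7. Mcm3 gave -0.66 at 10 ppm and -0.68 at 40 ppm, against -0.35 and -0.37 without the covariate, and Mcm7 gave -0.52 at 10 ppm, -0.34 at 20 ppm and -0.47 at 40 ppm, against -0.53, -0.35 and -0.48. Air shared no range of either covariate with any group from 5 ppm up, so these changes are extrapolated. The number of all genes called at 120 ppm fell too. It was 11784 without a covariate, 5042 with the quartile range and 4160 with the array axis.

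The largest riser was Mcm4. Its values were 7.46, 7.31, 7.40, 7.62 and 7.36 in mice at 120 ppm, against 4.36, 4.92, 5.12, 5.23 and 5.47 in air. Every mouse at 120 ppm was above every air mouse. By group, Mcm4 had mean log2 levels of 5.02 ± 0.42 in air, 5.19 ± 0.37 at 1 ppm, 7.41 ± 0.20 at 5 ppm, 7.14 ± 0.09 at 10 ppm, 7.20 ± 0.33 at 20 ppm, 7.03 ± 0.10 at 40 ppm and 7.43 ± 0.12 at 120 ppm (SD, n = 5). The air and 1 ppm groups overlapped each other, neighbours in the order of means from 40 ppm up to 120 ppm (40, 10, 20, 5 and 120 ppm) overlapped too, and the sole break in that order lay between 1 ppm and 40 ppm. Mcm6, the other subunit that rose, had 7.38, 7.33, 7.53, 7.47 and 7.53 at 120 ppm, against 5.72, 6.37, 6.43, 6.78 and 6.84 in air. The lowest air value belonged to mouse 1, which also had the lowest air value of Mcm4. Group means of Mcm6 were 6.43 ± 0.45 in air, 6.51 ± 0.17 at 1 ppm, 7.33 ± 0.13 at 5 ppm, 7.38 ± 0.11 at 10 ppm, 7.44 ± 0.33 at 20 ppm, 7.42 ± 0.15 at 40 ppm and 7.45 ± 0.09 at 120 ppm. From 5 ppm up the ranges of neighbouring groups in this order overlapped.

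**Figure D1:**
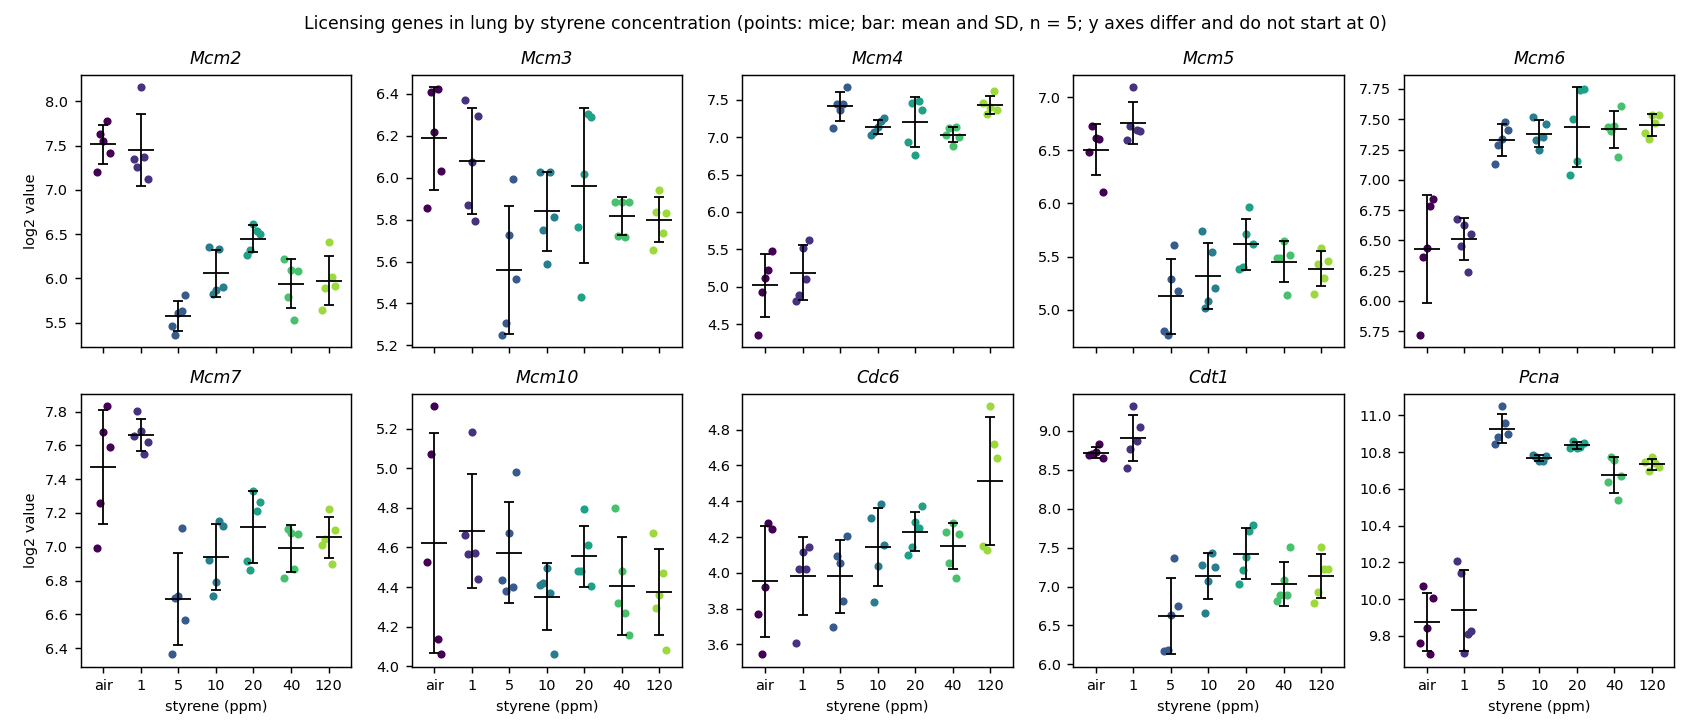
Log2 value of each licensing gene (y axis, a scale of its own per gene and not starting at 0) in every mouse, by styrene concentration in ppm (x axis). Points are mice and black bars are means with SD of 5 mice. Mcm4, Mcm6 and Pcna sit above air and 1 ppm in every mouse from 5 ppm up, Mcm2, Mcm5 and Cdt1 sit below, and Mcm10 shows no step.

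Mcm2 moved the other way. Its values were 5.46, 5.36, 5.61, 5.63 and 5.81 at 5 ppm and 5.65, 5.89, 6.41, 6.02 and 5.91 at 120 ppm, against 7.20, 7.64, 7.55, 7.78 and 7.42 in air. Both exposed groups lay wholly below the air mice. The group means were 7.52 ± 0.22 in air, 7.45 ± 0.41 at 1 ppm, 5.58 ± 0.17 at 5 ppm, 6.06 ± 0.26 at 10 ppm, 6.45 ± 0.15 at 20 ppm, 5.94 ± 0.28 at 40 ppm and 5.97 ± 0.28 at 120 ppm (SD, n = 5). The lowest level was at 5 ppm and, among the groups from 5 ppm up, the highest was at 20 ppm, so the order did not follow concentration. Mcm5 gave the same picture with 5.15, 5.43, 5.58, 5.30 and 5.46 at 120 ppm, against 6.49, 6.73, 6.61, 6.60 and 6.10 in air. Its group means were 6.51 ± 0.24 in air, 6.76 ± 0.20 at 1 ppm, 5.13 ± 0.35 at 5 ppm, 5.32 ± 0.31 at 10 ppm, 5.61 ± 0.24 at 20 ppm, 5.45 ± 0.19 at 40 ppm and 5.38 ± 0.17 at 120 ppm. Here 5 ppm was again lowest and 20 ppm again the highest of the groups from 5 ppm up.

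Mcm3 and Mcm7 fell by smaller amounts and their ranges overlapped those in air. Mcm7 had 7.01, 7.05, 7.23, 6.90 and 7.10 at 120 ppm, against 7.00, 7.26, 7.68, 7.83 and 7.59 in air, where the lowest air mouse was below most exposed mice. Its group means were 7.47 ± 0.34 in air, 7.66 ± 0.09 at 1 ppm, 6.69 ± 0.27 at 5 ppm, 6.94 ± 0.20 at 10 ppm, 7.12 ± 0.21 at 20 ppm, 6.99 ± 0.14 at 40 ppm and 7.06 ± 0.12 at 120 ppm. Mcm3 had 5.66, 5.84, 5.94, 5.74 and 5.83 at 120 ppm, against 5.86, 6.41, 6.22, 6.42 and 6.03 in air. Its group means were 6.19 ± 0.25 in air, 6.08 ± 0.25 at 1 ppm, 5.56 ± 0.31 at 5 ppm, 5.84 ± 0.19 at 10 ppm, 5.96 ± 0.37 at 20 ppm, 5.82 ± 0.09 at 40 ppm and 5.80 ± 0.11 at 120 ppm. At 20 ppm Mcm3 gave -0.22 ± 0.15 with an adjusted p of 0.188, its single comparison from 5 ppm up without a call. The Mcm3 call at 120 ppm was lost without air mouse 2 (adjusted p = 0.0641), air mouse 4 (0.0663) or 120 ppm mouse 1 (0.0535) in limma. The Mcm3 call at 10 ppm was lost without any 1 of 6 mice, with an adjusted p of up to 0.115: air mice 2, 3 and 4 and 10 ppm mice 2, 3 and 5. The Mcm3 call at 40 ppm was lost without any 1 of 5 mice, with an adjusted p of up to 0.0869: air mice 2, 3 and 4 and 40 ppm mice 2 and 4. The Mcm7 call at 20 ppm was lost without air mouse 3 (0.0613), air mouse 4 (0.0871), 20 ppm mouse 1 (0.0584) or 20 ppm mouse 2 (0.0699).

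Of the loaders, Cdt1, which brings the MCM ring to the origin, had 6.18, 6.19, 6.63, 7.37 and 6.75 at 5 ppm and 6.79, 6.93, 7.50, 7.23 and 7.23 at 120 ppm, against 8.69, 8.70, 8.73, 8.83 and 8.65 in air. The air mice lay close together and above every mouse from 5 ppm up. Its group means were 8.72 ± 0.07 in air, 8.90 ± 0.30 at 1 ppm, 6.62 ± 0.49 at 5 ppm, 7.14 ± 0.30 at 10 ppm, 7.42 ± 0.32 at 20 ppm, 7.04 ± 0.28 at 40 ppm and 7.14 ± 0.28 at 120 ppm. Cdc6, the ATPase that works with Cdt1, had 4.15, 4.13, 4.93, 4.72 and 4.64 at 120 ppm, against 3.77, 3.55, 3.92, 4.28 and 4.24 in air. At 120 ppm 3 mice lay above the air range and the other two lay inside it. Cdc6 group means were 3.95 ± 0.31 in air, 3.98 ± 0.22 at 1 ppm, 3.98 ± 0.20 at 5 ppm, 4.14 ± 0.22 at 10 ppm, 4.23 ± 0.11 at 20 ppm, 4.15 ± 0.13 at 40 ppm and 4.51 ± 0.36 at 120 ppm, and its call held at 120 ppm and at no other concentration. The adjusted p at the other concentrations was between 0.0952 and 0.964 (limma, n = 5 mice in each group). Without air mouse 4 (0.0398) or air mouse 5 (0.0438) Cdc6 was also called at 20 ppm in limma, and no 1 mouse left out ended its call at 120 ppm. Cdc6 was dim, at percentile 44.4 of all probe sets by its mean.

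Pcna was the brightest of the 10 genes, at percentile 97.9 of all probe sets. It had 10.85, 10.88, 11.05, 10.96 and 10.90 at 5 ppm and 10.74, 10.70, 10.77, 10.74 and 10.72 at 120 ppm, against 9.76, 10.07, 9.84, 9.70 and 10.00 in air. Its group means were 9.88 ± 0.16 in air, 9.94 ± 0.22 at 1 ppm, 10.93 ± 0.08 at 5 ppm, 10.77 ± 0.02 at 10 ppm, 10.84 ± 0.02 at 20 ppm, 10.68 ± 0.10 at 40 ppm and 10.73 ± 0.03 at 120 ppm, and the SD at 10 and 20 ppm was far below that in air. Mcm10, which helps to activate the loaded ring, had group means of 4.62 ± 0.56 in air, 4.68 ± 0.29 at 1 ppm, 4.57 ± 0.26 at 5 ppm, 4.35 ± 0.17 at 10 ppm, 4.56 ± 0.15 at 20 ppm, 4.40 ± 0.25 at 40 ppm and 4.38 ± 0.22 at 120 ppm. Air mice spread over 4.06 to 5.31, wider than the whole span of the group means. By its brightest probe set Mcm10 was called in none of the 6 comparisons with air, nor by the F test over the 7 groups (adjusted p = 0.432), and its unadjusted p-values against air included none under 0.05. Without air mouse 5 it was called at 10 ppm (limma, adjusted p = 0.0436).

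Across concentrations the split held its shape from 5 ppm up. At 1 ppm 0 of the 10 genes were called in limma, with 0 at an unadjusted p under 0.05, and their changes ran from -0.11 to 0.25 with SEs of 0.08 to 0.19. Over all genes 2.46% were called there. With the quartile range as a covariate Mcm4 was called higher at 1 ppm (0.66, adjusted p = 0.0443 in limma), against 0.17 without it. Over all genes that covariate left 78 called at 1 ppm, against 420. At 5 ppm 3 of the 10 rose and 5 fell, where 77.0% of all genes were called (29.6% higher and 47.4% lower), and 5 changed by at least 2-fold with a call, against 36.5% of all genes. At 10 ppm the counts were again 3 higher and 5 lower (background 66.4%, with 29.0% higher and 37.4% lower). At 20 ppm they were 3 higher and 4 lower (63.6%, 29.4% and 34.2%), and at 40 ppm 3 higher and 5 lower (64.8%, 28.6% and 36.2%). Mcm4, Mcm6 and Pcna made up the higher genes at each of these concentrations, joined by Cdc6 at 120 ppm. The 6 comparisons share the same 5 air mice, so they are not independent of each other.

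For Mcm4 the log2 change against air was 2.39 ± 0.16 at 5 ppm, 2.12 ± 0.16 at 10 ppm, 2.18 ± 0.16 at 20 ppm, 2.01 ± 0.16 at 40 ppm and 2.41 ± 0.16 at 120 ppm. That for Mcm2 was -1.94 ± 0.16, -1.46 ± 0.16, -1.07 ± 0.16, -1.58 ± 0.16 and -1.54 ± 0.16 in the same order. Neither series ran in the order of concentration. Cdt1 gave -2.10 ± 0.19 at 5 ppm, its largest change, and -1.30 ± 0.19 at 20 ppm, its smallest from 5 ppm up.

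**Figure D2:**
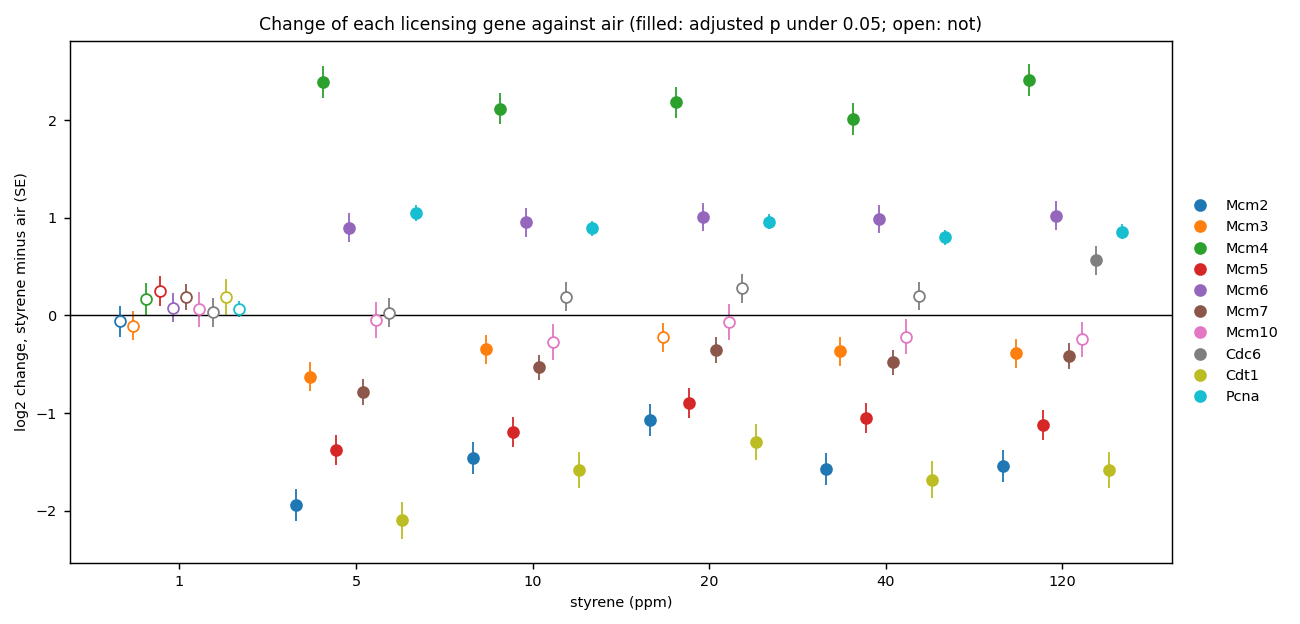
Log2 change of each gene, styrene minus air (y axis), with its standard error, by styrene concentration in ppm (x axis). Colours are genes, and filled points were called at an adjusted p under 0.05. At 1 ppm all 10 points are open, and from 5 ppm up Mcm4 stands above 2 while Cdt1 and Mcm2 stand between -1.07 and -2.10.

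Taking the arrays as 2 sets, the 25 arrays of 5 to 120 ppm and the 10 arrays of air and 1 ppm did not overlap for Mcm2, Mcm4, Mcm5, Mcm6, Cdt1 and Pcna. Over all genes the ranges of these sets did not overlap for 29.5%. Mcm4 ran from 6.76 to 7.67 in the higher concentrations, against 4.36 to 5.63 in air and 1 ppm. Cdt1 ran from 6.18 to 7.79, against 8.53 to 9.31. Mcm3, Mcm7, Mcm10 and Cdc6 overlapped. A slope over log2(ppm + 1) was called for 8 of the 10 genes, 4 higher and 4 lower, where 72.6% of all genes were called (30.9% higher and 41.8% lower), and an F test over all 7 group means was called for 9, where 82.4% were. On linear ppm 0 of the 10 slopes were called in limma, where 14 of 17097 genes were. With the quartile range as a covariate 2 were called higher and 0 lower (with 5 by the F test, not 9), and with the array axis 0 were called lower. Over all genes 5275 slopes were called higher and 7145 lower without a covariate. The quartile range left 986 and 200, and the array axis 3238 and 1604. The F test was called for 7880 of all genes with the quartile range, against 14083 without it. The slope of Mcm3 had an adjusted p of 0.052 and was called without any 1 of 10 mice, with a lowest adjusted p of 0.0254 without 5 ppm mouse 1 (the others were air mouse 1, 1 ppm mouse 4, 5 ppm mice 2, 3 and 5, 20 ppm mice 3, 4 and 5 and 120 ppm mouse 3). That of Mcm10 (0.0725) was called without air mouse 4 (0.026), air mouse 5 (0.0195), 40 ppm mouse 1 (0.0491) or 120 ppm mouse 1 (0.0454) in limma. Among the 5 to 120 ppm groups alone 0 of the 10 slopes were called in limma, with 3 at an unadjusted p under 0.05. The F test was called there for Mcm2, Mcm4, Mcm7, Cdc6, Cdt1 and Pcna. Over all genes the slope was called there for 1 gene and the F test for 40.9%. Among the 10 to 120 ppm groups 0 of the 10 were called by either test, with 1 slope and 4 F tests at an unadjusted p under 0.05. Over all genes the slope was called there for 0 and the F test for 29 (0.17%), so these zeros are not particular to the 10 genes.

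Comparing exposed groups with each other leaves out the air mice. At 5 ppm, set against the mean of 10, 20 and 40 ppm, 5 of the falling genes were lower still: Mcm2 (-0.57 ± 0.13, adjusted p = 0.00071), Cdt1 (-0.58 ± 0.15, 0.00274), Mcm7 (-0.33 ± 0.11, 0.0147), Mcm5 (-0.33 ± 0.13, 0.0323) and Mcm3 (-0.32 ± 0.12, 0.0364) in limma. Pcna was higher still (0.17 ± 0.07, 0.0402), and Mcm4 gave 0.29 ± 0.13 with an adjusted p of 0.0797. Over all genes 42.3% were called in this contrast, 13.5% higher and 28.8% lower. With the array axis as a covariate 0 of these calls were left in limma, higher or lower, and the signs of Mcm4 (-0.16) and Mcm5 (0.0061) turned. Over all genes 849 were called there, against 7232 without the covariate. When a gene's probe sets were averaged, 3 were lower, not 5, while 5102 of all genes were lower, against 4926. Pcna was not called after median centring (0.143), nor once the quartile range entered the fit (0.066). Several calls also hung on single mice. Without 5 ppm mouse 1 the calls of Mcm3 (0.153), Mcm5 (0.144) and Mcm7 (0.0894) were lost and that of Mcm4 was gained (0.0459), and without 5 ppm mouse 2 those of Mcm3 (0.137), Mcm5 (0.158) and Pcna (0.0545) were lost. Without 5 ppm mouse 5 those of Mcm3 (0.0754), Mcm5 (0.0503) and Pcna (0.0586) were lost. The Pcna call was also lost without 5 ppm mouse 3 (0.138), 5 ppm mouse 4 (0.0781), 10 ppm mouse 4 (0.0503), 40 ppm mouse 1 (0.0513) or 40 ppm mouse 4 (0.0589). That of Mcm3 was also lost without 10 ppm mouse 1 (0.052), 10 ppm mouse 4 (0.0523), 20 ppm mouse 4 (0.0534) or 20 ppm mouse 5 (0.0539). The calls of Mcm2 and Cdt1 held without any 1 mouse.

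At 120 ppm, set against the same 3 groups, 0 of the 10 genes were called in limma, with 2 at an unadjusted p under 0.05, and 0.0936% of all genes were. Cdc6 came closest (0.34 ± 0.12, adjusted p = 0.302), followed by Mcm4 (0.30 ± 0.13, 0.405). The call of Cdc6 against air at 120 ppm alone is therefore not shown to differ from the lower concentrations.

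Several genes could be read from more than 1 probe set. The second Mcm2 probe set gave -1.40 ± 0.13 at 120 ppm, against air, beside -1.54 ± 0.16 for the first. The second Mcm3 probe set gave -0.62 ± 0.15 at 120 ppm, beside -0.39 ± 0.15 for the first, and was called at 20 ppm as well (-0.70 ± 0.15, adjusted p = 0.000209). The second Mcm7 probe set gave -0.49 ± 0.20 at 120 ppm (0.0299) but no call at 5 ppm (-0.43 ± 0.20, 0.0503) and at 20 ppm (-0.33 ± 0.20, 0.154). The second Cdt1 probe set gave -1.25 ± 0.25 at 120 ppm (6.65e-05). The third Cdt1 probe set (0.04 ± 0.08) and the second Mcm5 probe set (-0.12 ± 0.09) gave no call at 120 ppm, and both sat within the dimmest 3.09% of all probe sets. The second Mcm10 probe set gave -0.15 ± 0.10 at 5 ppm (0.162) and -0.10 ± 0.10 at 120 ppm (0.377). The third, among the dimmest 0.218% of all probe sets, was called lower at 5 ppm (-0.16 ± 0.07, 0.0469) and not at 120 ppm (-0.11 ± 0.07, 0.179). Mcm4, Mcm6, Cdc6 and Pcna had a single probe set each, so the rises rest on 1 probe set per gene. Of the 18 probe sets, 4 were called higher and 9 lower at 120 ppm, where 59.5% of all probe sets were called.

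**Figure D3:**
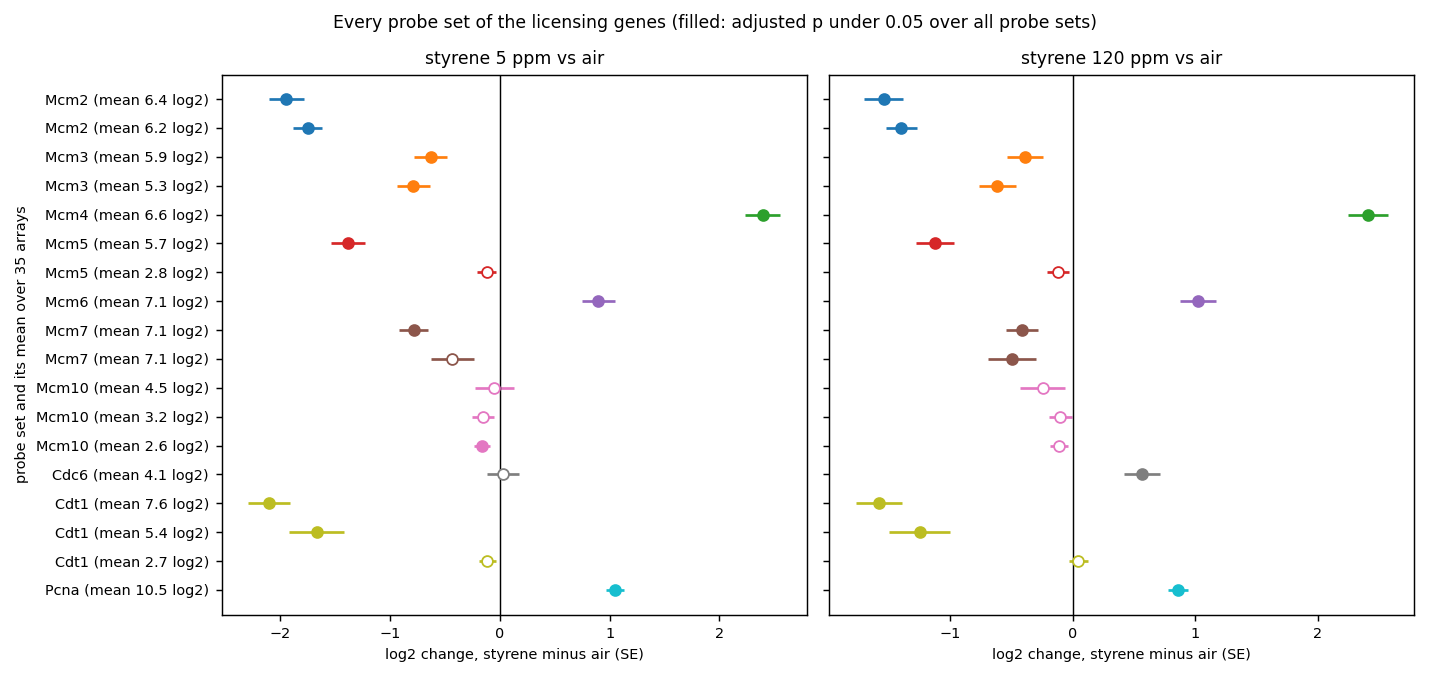
Log2 change, styrene minus air, with its standard error (x axis) for each of the 18 probe sets, at 5 ppm (left) and 120 ppm (right). Each row (y axis) is a probe set with its mean log2 level over 35 arrays, and filled points were called over all probe sets. Bright probe sets of one gene share a direction, and the probe sets with a mean under 3.3 sit near 0.

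A different order appeared among mice of the same group. When each value was taken as its deviation from the group mean, all 15 pairs among Mcm2 to Mcm7 had a positive Pearson r over the 35 arrays. For the 8 pairs that moved in opposite directions with exposure it ran from 0.02 to 0.60, and for the 7 pairs that moved the same way from 0.37 to 0.71. Over the undivided 35 values the 8 opposite pairs had r of -0.87 to -0.27. Mcm6 and Mcm7, for example, had r = 0.60 within groups and -0.50 over all arrays, and Mcm2 and Mcm4 had 0.19 within groups and -0.87 over all arrays. Mcm5 and Cdt1 had 0.74 within groups. These values are descriptions: genes on an array share its RNA and its normalization, and air mouse 1 was the lowest of its group for Mcm2, Mcm3, Mcm4, Mcm6 and Mcm7 together.

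**Figure D4:**
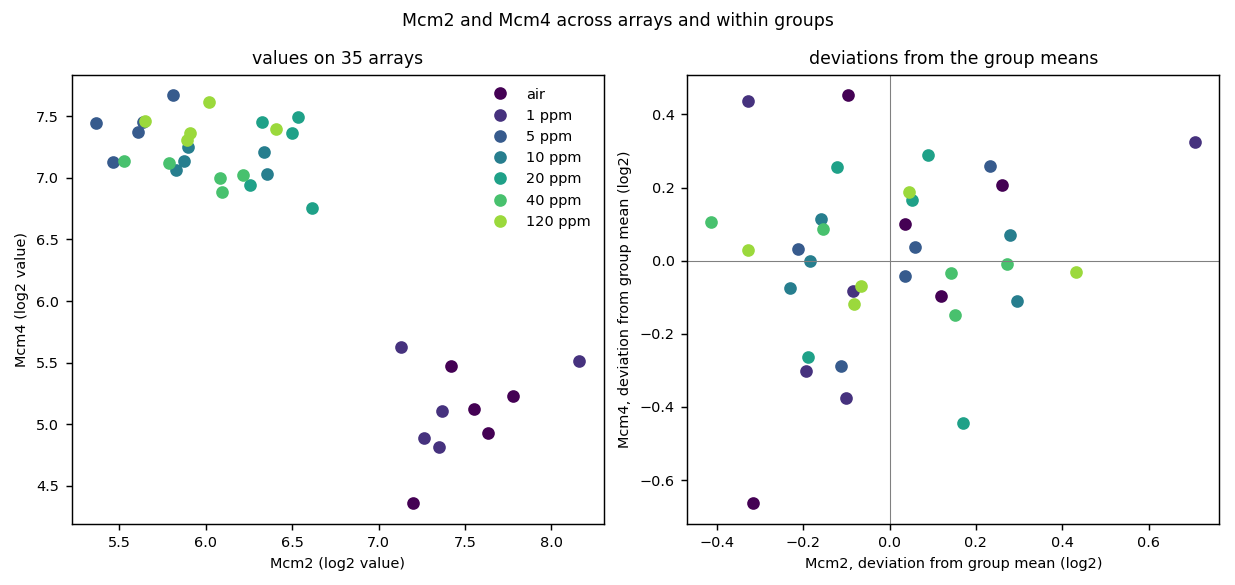
Mcm4 (y axis) against Mcm2 (x axis), both log2, on 35 arrays coloured by styrene concentration. On the left are the values, in which air and 1 ppm form the lower right cloud and 5 to 120 ppm the upper left one (r = -0.87), and on the right the deviations from each group's mean (r = 0.19).

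The promoters were read for E2F sites, since licensing genes are textbook E2F targets. RefSeq windows on GRCm38.p6, from 250 bases before to 50 bases after a gene start, were found for 9 of the 10 genes, all but Mcm4, with 2 windows for Mcm7. They were searched on both strands for 2 spellings of the site, TTTCCCGC and TTTGGCGC. At least 1 of them was present for 6 genes: Mcm3, Mcm5, Mcm6, Mcm7, Cdc6 and Cdt1. Of all 32851 windows 1.07% held the first spelling, 0.514% the second and 1.56% either. No 2 matches overlapped. Mcm6, which was higher from 5 ppm up, held 2 matches, and Mcm5 and Mcm7, which were lower, held 1 each, so the spelling did not separate the directions. The Mcm7 match lay in 1 of its 2 windows, and the other, at chr5:138171217-138171516, held 0. Mcm3 and Cdt1, also lower, held theirs within the 50 bases after the start. Neither spelling was in the windows of Mcm2, Mcm10 and Pcna, which says only that these letters were not there. The 250 bases before the start are shown for 1 gene that rose and 2 that fell, 5′ to 3′ on the gene's strand, with matches on either strand in capitals: Mcm6 at chr1:128359706-128359955 (minus strand), Mcm5 at chr8:75109259-75109508 (plus strand) and Mcm7 at chr5:138171884-138172133 (minus strand).
Mcm6 promoter: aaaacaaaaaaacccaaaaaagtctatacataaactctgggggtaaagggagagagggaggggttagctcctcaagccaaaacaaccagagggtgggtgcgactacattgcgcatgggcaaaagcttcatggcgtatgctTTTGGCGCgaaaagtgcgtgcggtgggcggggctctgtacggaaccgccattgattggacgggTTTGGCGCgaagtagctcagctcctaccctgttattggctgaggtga
Mcm5 promoter: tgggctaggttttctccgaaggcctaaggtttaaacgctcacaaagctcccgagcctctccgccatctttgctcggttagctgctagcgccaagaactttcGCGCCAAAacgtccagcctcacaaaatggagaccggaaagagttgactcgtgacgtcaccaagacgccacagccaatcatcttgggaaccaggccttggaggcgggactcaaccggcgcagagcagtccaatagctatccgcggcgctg
Mcm7 promoter: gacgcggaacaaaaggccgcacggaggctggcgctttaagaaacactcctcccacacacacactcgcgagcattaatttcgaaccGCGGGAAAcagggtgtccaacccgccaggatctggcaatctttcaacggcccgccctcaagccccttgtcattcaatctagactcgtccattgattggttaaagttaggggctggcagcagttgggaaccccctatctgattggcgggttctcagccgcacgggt

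The wider replication machinery was divided as well. Lists of 110 further genes, 104 of them measured, gave 47 higher, 34 lower and 23 uncalled at 120 ppm, with a median log2 change of 0.20, against -0.15 over all genes, of which 68.9% were called. At 5 ppm they gave 52 higher, 36 lower and 16 uncalled, where 77.0% of all genes were called. The origin recognition complex, which seats the MCM ring, had 4 of 5 measured subunits higher and 1 lower at both concentrations. At 120 ppm Orc5 gave 1.77 ± 0.12 (adjusted p = 2.58e-14), Orc2 1.30 ± 0.13 (9.86e-11) and Orc6 1.19 ± 0.14 (3.62e-09) in limma. The subunit that fell was Orc1, at -0.45 ± 0.13 (0.00278), named here after its value was seen. Thus 2 complexes that are each built from fixed subunits had members called in both directions.

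Among the partners of the helicase and the factors that fire origins, 6 of 11 were higher and 2 lower at 120 ppm, where 68.9% of all genes were called. Topbp1, a scaffold of origin firing, gave 1.81 ± 0.19, Gins4, a GINS subunit, 1.56 ± 0.16, and Dbf4, the activator of the kinase that phosphorylates the MCM ring, 1.52 ± 0.24 (adjusted p = 6.55e-10, 2.4e-10 and 1.23e-06 in that order). Of 10 genes that control licensing or are relatives of the ring, 7 were higher and 2 lower. Fzr1, an activator of the anaphase-promoting complex that destroys geminin, fell by 1.50 ± 0.13 on the log2 scale (1.27e-11 in limma). Mcmbp, which binds MCM subunits, rose by 0.82 ± 0.10 (4.25e-09), and Cul4a, the scaffold of a ligase that degrades Cdt1, rose by 1.45 ± 0.14 (4.47e-11). Among the same 10 genes the slope over log2(ppm + 1) was called higher for Cul4b, lower for Ddb1 and not called for Dtl. These are RNA levels, and breakdown of the proteins was not tested. Gmnn, the inhibitor of Cdt1, was at 6.78, 7.23, 7.17, 7.24 and 7.32 at 120 ppm, against 5.07, 4.81, 5.75, 5.07 and 5.84 in air, a change of 1.84 ± 0.22 (7.64e-09). Every mouse at 120 ppm was above the air range. Cdt1 and its inhibitor were thus called in opposite directions at 120 ppm, and at 5 ppm Gmnn gave 1.28 ± 0.22 (4.44e-06).

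Around Pcna, 5 of the 8 genes that load or unload the clamp were higher and 3 lower at both 5 and 120 ppm, where 77.0% and 68.9% of all genes were called. Rfc4 rose by 1.52 ± 0.16 and Rfc2 fell by 0.76 ± 0.10 on the log2 scale at 120 ppm, although both are subunits of the same clamp loader (adjusted p = 6.15e-10 and 6.71e-08). Pclaf, a PCNA-binding factor, gave 1.19 ± 0.16 (5.32e-08). Of 16 polymerase and lagging strand genes, 7 were higher and 7 lower at 120 ppm, among them Pold2, a subunit of polymerase delta (-1.68 ± 0.13, 7.88e-13), Prim2, the large primase subunit (1.42 ± 0.15, 7.01e-10), and Pole3, a subunit of polymerase epsilon (1.06 ± 0.13, 6.55e-09).

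**Figure D5:**
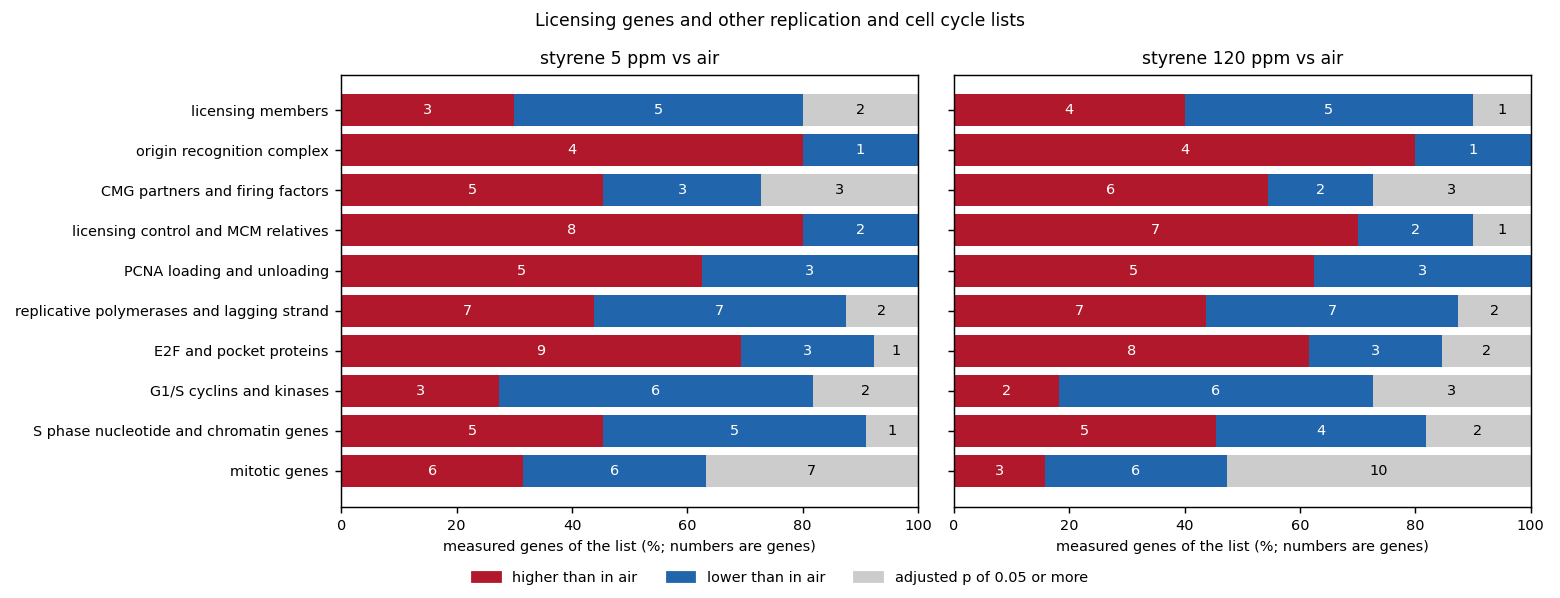
Share of the measured genes of each list (x axis, percent) called higher, called lower or not called against air, at 5 ppm (left) and 120 ppm (right). Rows (y axis) are lists and numbers in the bars are genes. Every list holds calls in both directions at both concentrations, and the mitotic list has 10 of 19 genes uncalled at 120 ppm.

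Markers of cycling cells were read beside the licensing genes. Mki67, present in cells in any active phase, was at 5.89, 6.06, 6.09, 5.77 and 6.25 at 5 ppm and at 4.77, 3.86, 3.96, 3.84 and 3.91 at 120 ppm, against 3.81, 3.61, 4.05, 3.65 and 3.82 in air. The 5 ppm mice stood apart from all others. Its change was 2.23 ± 0.15 at 5 ppm (adjusted p = 2.68e-14) and 0.28 ± 0.15 at 120 ppm (0.106). Top2a, the topoisomerase of dividing cells, gave 2.10 ± 0.16 at 5 ppm (2.03e-13) and 0.94 ± 0.16 at 120 ppm (4.63e-06). Of 19 mitotic genes measured, 3 were higher, 6 lower and 10 uncalled at 120 ppm, where 68.9% of all genes were called, and 6 higher, 6 lower and 7 uncalled at 5 ppm, where 77.0% were. Cenpa, the histone variant of centromeres, fell by 1.51 ± 0.12 at 5 ppm and by 1.27 ± 0.12 at 120 ppm. Mcm4 was raised at 120 ppm as far as at 5 ppm, while Mki67 was not called at 120 ppm. The difference between the genes was not tested. Mki67 was dim, with means of 3.79 in air and 4.07 at 120 ppm, below the median probe set of 4.47. Top2a was below it in air too, at 3.80.

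Markers of blood and immune cells differed between the same groups. The erythroid list, 4 of 7 genes measured, averaged 7.56 to 8.37 in mice at 5 ppm and 7.65 to 8.25 at 120 ppm, against 8.71 to 9.11 in air. The platelet list, 5 of 5 measured, averaged 6.52 to 7.18 at 5 ppm and 5.97 to 7.16 at 120 ppm, against 7.85 to 8.38 in air. The macrophage list, 4 of 5 measured, averaged 8.53 or more at 5 ppm and 8.41 to 9.30 at 120 ppm, against 7.00 to 8.13 in air. The B cell list averaged 4.91 to 6.34 at 120 ppm, against 5.13 to 5.94 in air, the T and NK cell list 4.83 to 6.03, against 5.18 to 5.41, and the neutrophil list 6.83 to 8.38, against 6.80 to 8.67, all with overlap. The germinal centre and plasma cell list, 2 of 5 measured, averaged 9.64 to 10.29 at 120 ppm, against 8.40 to 9.56 in air. The thymocyte list averaged 3.51 to 3.93 at 120 ppm, against 3.63 to 3.84 in air, below the median probe set of 4.47. The lung list averaged 11.60 to 11.79 at 120 ppm, against 11.57 to 11.76 in air. On a log2 array scale no marker was at 0. In whole lung, fewer cells of a type and less RNA per cell cannot be told apart, and the part of these cells in the licensing genes was not tested.

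Outside the group, genes were sought whose deviations from their group means, over 35 arrays, correlated best with the mean deviation of Mcm2 to Mcm7. They were Asb8 (Pearson r = 0.79), Fen1 (0.78), Fbxl17 (0.77), N4bp2l1 (0.76) and Aasdh (0.76). Air mouse 1 was the lowest of its group for each of these genes, as it was for most of the ring subunits. For Asb8 it was at 6.25, against 6.94 or more in the other air mice. How far the likeness rests on that mouse was not tested. The changes of these genes with exposure did not share a direction. At 120 ppm N4bp2l1 (1.29 ± 0.19, adjusted p = 6.18e-07) and Asb8 (0.58 ± 0.11, 3.77e-05) were called higher in limma. Fen1, the flap nuclease of the lagging strand, was called lower (-0.66 ± 0.17, 0.00135), and Fbxl17 (-0.01 ± 0.11, 0.925) and Aasdh (0.12 ± 0.14, 0.459) were not called, where 68.9% of all genes were.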

How the data were processed

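Whole-lung RNA was hybridised to an Affymetrix mouse array, 1 array per mouse. The table the authors deposited holds 1 log2 value per probe set and array. RMA and Partek are named, without version or role, per the submitters' processing notes. No build is given in the sources used here, and array data have no read depth, so the number of arrays limits the precision. Symbols came from the platform annotation, and the Entrez identifiers of 28689 probe sets matched the reference gene table, which updated 0 symbols. A linear model with 7 group means was fitted to all 17097 genes using R 4.3.3 and limma 3.58.1 (lmFit and eBayes), and p-values were adjusted by Benjamini-Hochberg over all genes of a comparison. All tests are two-sided. The labels number the mice as biological replicates, and p-values measure the spread between them. The trend used log2(ppm + 1). The fit was tested on simulated data with independent noise in each gene and few changed genes. That simulation held no shift across whole arrays, so it does not bear on the array spread that separates the groups here.

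The members, the pathway and marker lists and the tests were chosen with earlier results of these data known. The genes named were the 10 members, up to 3 called genes per pathway list with the smallest adjusted p by the F test, Mki67, Top2a and Gmnn, and the 5 genes most like the mean of Mcm2 to Mcm7 within groups. A likeness over group means was computed too and is not reported, because rising and falling subunits cancel in that mean. Alternatives were other probe set choices, normalizations, filters, covariates, priors and controls, and each array left out. Figures were drawn with matplotlib 3.10.9 in Python 3.11.15.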

Additional observations from a re-analysis of the deposited data

Results flagged for a closer look

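Of 70 groups of 5 values, 4 held a mouse far from the other 4 of its group by Dixon's ratio of gap to range, with a critical value of 0.71, and chance gives about 1 in 20. At 1 ppm mouse 3 was highest for Mcm2, at 8.16, against 7.37 for the next mouse, and for Mcm5, at 7.10, against 6.73. At 10 ppm mouse 5 was lowest for Mcm10, at 4.06, against 4.37 for the next mouse. At 1 ppm mouse 1 was lowest for Cdc6, at 3.61, against 4.02.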

How the results depend on the processing

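Here the 5 ppm and 120 ppm contrasts are those against the mean of 10, 20 and 40 ppm, the other comparisons are with air, and numbers of members called are given where they moved by over 1.5 times. With the mean of probe sets, the calls were 3 lower (not 5) in the 5 ppm contrast. The sign turned for Mcm7 -0.074 at 1 ppm, Mcm10 -0.0090 in the 5 ppm contrast. After quantile normalization, the sign turned for Mcm2 0.031, Mcm3 0.069 and Cdc6 -0.00080 at 1 ppm. After median centring, the calls were 0 higher (not 1) in the 5 ppm contrast. The sign turned for Cdc6 -0.073 at 5 ppm. With the compared groups alone, the calls were 2 higher (not 1) in the 5 ppm contrast. With mouse number as a replicate block, the calls were 2 higher (not 1) in the 5 ppm contrast. With the quartile range as covariate, the calls were 1 higher (not 0) at 1 ppm, 3 lower (not 5) at 10 ppm, 3 lower (not 5) at 40 ppm, 2 higher (not 4) at 120 ppm, 0 higher (not 1) in the 5 ppm contrast, 5 called (not 9) in the F test, 2 higher (not 4) and 0 lower (not 4) in the slope. The sign turned for Mcm2 0.0037 and Mcm3 0.057 at 1 ppm, Cdc6 -0.071 at 5 ppm, Mcm7 0.024 in the slope. With the array axis as covariate, the calls were 2 lower (not 5) at 5 ppm, 2 lower (not 5) at 10 ppm, 1 lower (not 4) at 20 ppm, 2 lower (not 5) at 40 ppm, 2 higher (not 4) and 2 lower (not 5) at 120 ppm, 0 higher (not 1) and 0 lower (not 5) in the 5 ppm contrast, 0 lower (not 4) in the slope. The sign turned for Mcm10 0.42 at 5 ppm, Mcm10 0.046 at 10 ppm, Mcm10 0.20 at 20 ppm, Mcm10 0.062 at 40 ppm, Mcm10 0.094 at 120 ppm, Mcm4 -0.16 and Mcm5 0.0061 in the 5 ppm contrast, Mcm5 0.027 and Mcm6 -0.039 in the 120 ppm contrast, Mcm3 0.0076 and Mcm7 0.0080 in the slope. With 1 ppm in place of air, the sign turned for Cdc6 -0.0020 at 5 ppm. With a slope over ppm on a linear scale, the calls were 0 higher (not 4) and 0 lower (not 4) in the slope. Without air and 1 ppm, added after seeing the data, the calls were 0 higher (not 4) and 0 lower (not 4) in the slope. The sign turned for Mcm2 0.052, Mcm3 0.037, Mcm5 0.053, Mcm7 0.069, Cdt1 0.078 and Pcna -0.042 in the slope. Without air, 1 ppm and 5 ppm, also added after seeing the data, the calls were 0 called (not 9) in the F test, 0 higher (not 4) and 0 lower (not 4) in the slope. The sign turned for Mcm7 0.019 and Pcna -0.021 in the slope. The trended and robust prior, the slope over ranks and the filter on dim genes, which left out Cdc6, turned no sign and moved no count so far. Over all genes the numbers called also moved under the covariates and without groups. At 120 ppm 11784 genes were called, against 5042 with the quartile range and 4160 with the array axis. Without air and 1 ppm the F test was called for 6985 genes and the slope for 1. Without 5 ppm as well these were 29 and 0. The cause of these changes was not tested, apart from the fewer groups in the fits that leave groups out. No other call changed under the replicate block except Mcm10 in the slope, which was gained (adjusted p = 0.0492), and the mouse numbers do not pair the mice, since correlations of same-numbered mice ran from -0.21 to 0.31. Leaving out each array in turn, members called lower ranged from 4 to 6 at 10 ppm, 3 to 4 at 20 ppm, 4 to 5 at 40 and 120 ppm, 4 to 5 in the slope and 2 to 5 in the 5 ppm contrast, and members called higher from 3 to 4 at 20 ppm and 0 to 2 in the 5 ppm contrast. Changes without a call that turned sign ranged over Mcm2 -0.24 to 0.020 at 1 ppm, Mcm6 -0.10 to 0.18 at 1 ppm, Mcm10 -0.078 to 0.24 at 1 ppm, Cdc6 -0.071 to 0.12 at 1 ppm, Pcna -0.0045 to 0.12 at 1 ppm, Mcm10 -0.19 to 0.13 at 5 ppm, Cdc6 -0.073 to 0.11 at 5 ppm, Mcm10 -0.21 to 0.11 at 20 ppm, Mcm7 -0.0021 to 0.080 in the 120 ppm contrast, Mcm10 -0.13 to 0.012 in the 120 ppm contrast and Cdt1 -0.15 to 0.025 in the 120 ppm contrast. Under the alternatives other than leaving out an array, 859 values of single genes kept their direction and side of the threshold, 70 lost a call and 12 gained one. The number of arrays, not depth, limits the precision, and Mcm10 and Cdc6 lay near the median signal of the array.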

Other observations

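Factors that control entry into S phase also held calls in both directions. Of 13 E2F and pocket protein genes, 8 were higher and 3 lower at 120 ppm, where 68.9% of all genes were called. Rbl2, the pocket protein p130, rose by 2.37 ± 0.21 on the log2 scale, to 7.48 at 120 ppm, against 5.11 in air (limma, adjusted p = 8.1e-12). E2f5, a repressor that pairs with it, rose by 1.72 ± 0.12 (1.24e-13), and Tfdp2, a dimer partner of E2F factors, by 1.55 ± 0.14 (1.98e-11). E2f1 gave -1.07 ± 0.15 (2.28e-07) and was named after its value was seen. In the slope over log2(ppm + 1), E2f1, E2f2 and E2f4 were called lower. E2f3, E2f5, E2f6 and E2f7 were called higher in that slope, and E2f8 was not called. Of 11 cyclin and kinase genes of the G1/S step, 2 were higher and 6 lower. Ccnd3 fell by 1.38 ± 0.11 (2e-12) and Cdk4 by 0.72 ± 0.07 (1.88e-10), while Ccna2 rose by 0.41 ± 0.15 (0.0143).

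Of 11 genes for nucleotide supply and S phase chromatin, 5 were higher and 4 lower at 120 ppm. Over all genes 68.9% were called there, 29.8% higher and 39.1% lower. Slbp, which binds histone messenger RNA, rose by 1.77 ± 0.10 (9.18e-16), and Rrm1, the large subunit of ribonucleotide reductase, by 1.88 ± 0.18 (9.05e-11). Dut, which clears dUTP, fell by 1.16 ± 0.12 (7.84e-10).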
